A study of Mus musculus with 6 samples.

Results

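The 10 genes described here encode subunits of the mouse BAF (mammalian SWI/SNF) chromatin remodelling complex, and were chosen by name as the subunits that differ between neural progenitors and neurons, together with some that both forms share. They are the progenitor-type genes Actl6a, Phf10 and Ss18, the neuron-type genes Actl6b, Dpf1, Dpf3 and Ss18l1, and Smarca4, Smarcc1 and Smarcd3, which were placed in neither class. All probes carrying these symbols in the platform annotation were taken, 25 of 45281, and 18 of them were detected. The detected probes cover 9 of the 10 genes, out of 11280 genes tested in all. Cortical neurons from C57BL/6J mice of genotype Dicerflox/flox were grown in Neurobasal medium with B27 supplement and measured at day 14 in culture. Both groups received lentivirus at a multiplicity of infection of 5, as a control virus (3 arrays) or as a virus that knocks down the microRNA miR-27b (3 arrays). The labels name no Cre, and they do not say what the control virus carries. The series describes 3 neuronal preparations, and same-numbered arrays were taken as pairs.

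BAF complexes use the energy of ATP to move nucleosomes, which opens or closes DNA to transcription factors. As neural progenitors of the mouse leave the cell cycle, the actin-related subunit BAF53a (Actl6a), the PHD finger subunit BAF45a (Phf10) and SS18 are replaced by their relatives BAF53b (Actl6b), BAF45b or BAF45c (Dpf1, Dpf3) and CREST (Ss18l1). Neuron-type complexes are known for their part in dendrite growth and in activity-dependent transcription. In mouse neurons the exchange of BAF53a for BAF53b is known to depend on miR-9* and miR-124, which repress Actl6a.

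The lowered microRNA and a microRNA of the known exchange are shown to set their seeds side by side. Both come from RefSeq (GRCm38.p6), run 5′ to 3′, and have the seed, bases 2 to 8, in capitals. The mature miR-27b lies at chr13:63300760-63300780, plus strand, and miR-9* (named miR-9-3p) at chr3:88215652-88215673, plus strand for its first copy in the table. The seeds differ. No probe of the array is named for miR-27b, so its level was not measured.
mmu-miR-27b-3p: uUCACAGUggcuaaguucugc
mmu-miR-9-3p: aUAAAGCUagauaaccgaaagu

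The 10 genes did not move as a block from the progenitor form to the neuron form. Among the progenitor-type genes Phf10 rose, Ss18 fell and Actl6a did not pass the test. Among the neuron-type genes Ss18l1 rose, Actl6b and Dpf1 did not pass, and Dpf3 was not detected. Of the other members the ATPase gene Smarca4 rose, while Smarcc1 and Smarcd3 did not pass. In all, 3 of the 9 tested members were higher after knockdown and 1 was lower at a limma adjusted p under 0.05, with a median log2 difference of 0.16 against 0.01 over all genes. Among all 11280 genes 16.6% were higher and 15.3% lower, together 31.9%, so 4 calls among 9 genes lie near the share found across the array. The split of all calls depended on scaling, with 52.1% of them higher here and 40.2% with median scaling of the arrays. The groups of 3 arrays did not overlap for the same 4 members, or 44.4% of the 9, against 48.4% of all genes. With median scaling 2 members passed (Phf10 and Ss18), as without replicate pair 2, and without pair 1 the 2 were Ss18 and Smarca4. A two-sided exact permutation test of 3 against 3 arrays cannot go below p = 0.1, so calls come from the fit across all genes.

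**Figure D1:**
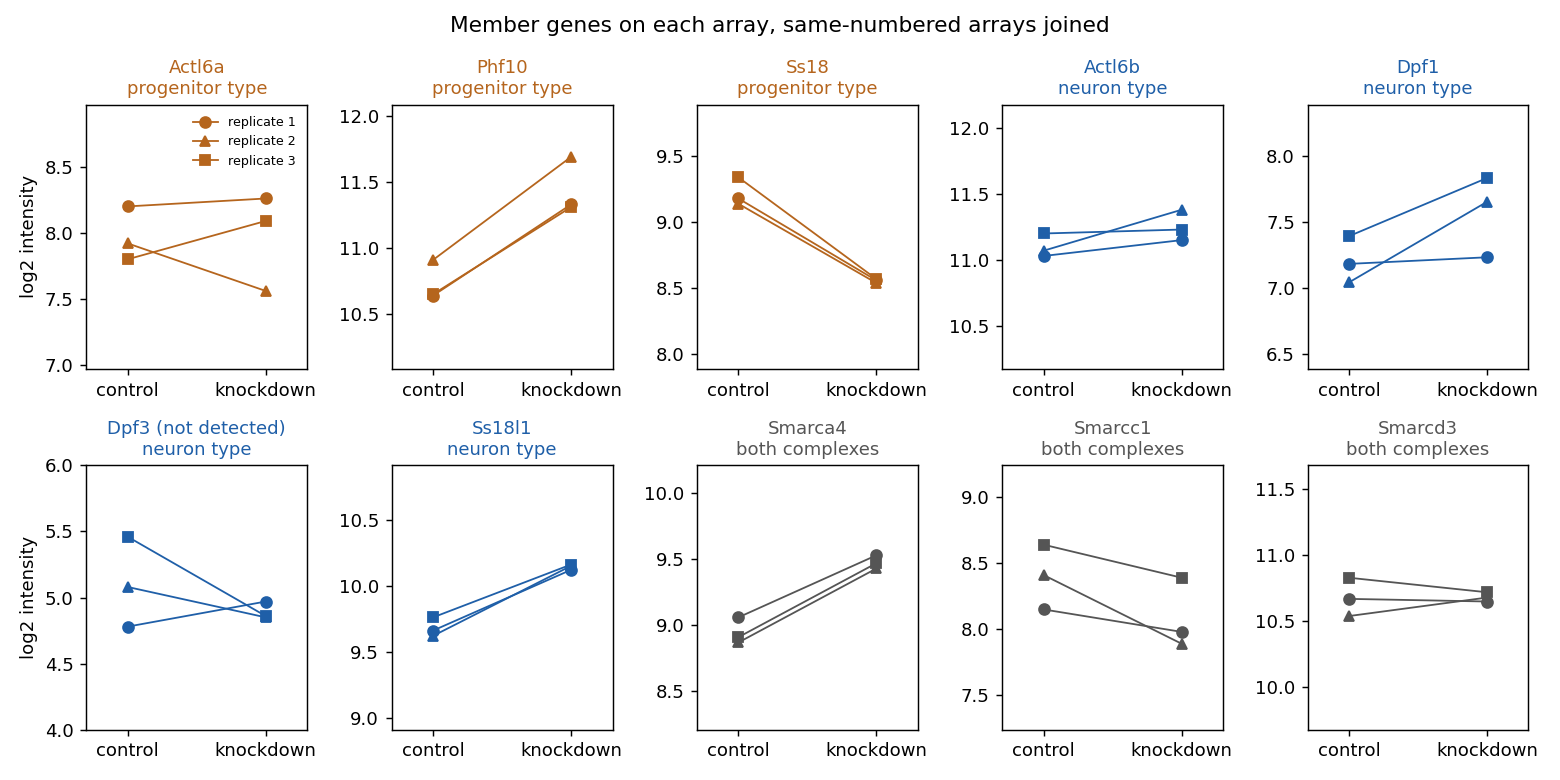
Log2 intensity (y axis, each panel spanning the same range of 2 log2 units) of each member gene on the control and knockdown arrays (x axis), with 1 line per pair of same-numbered arrays and colour by class. Phf10, Ss18l1 and Smarca4 lie higher on all 3 knockdown arrays and Ss18 lower, the lines of Actl6a cross, and Dpf3 was not detected on any array.

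The arrays were alike in quality. Between 38.6% and 42.3% of probes were detected per array at a detection p under 0.05, mean intensity ran from 669 to 788, and precision is limited by having 3 arrays a group. Knockdown replicate 3 had the fewest detected probes. No label says per array which preparation it came from, so p-values measure only the spread between these arrays, which may be technical in part. Of the pan-neuronal markers, 7 of 8 were detected, with summed intensities of 79700 to 84700 in controls and 81500 to 86300 after knockdown. Progenitor markers summed to 2070 to 2870 in controls and 2010 to 2920 after knockdown, and Sox1, Pax6, Prom1, Eomes, Mki67 and Ccnb1 were not detected. Of these, 2 of the 8 tested were lower and 0 higher by limma (Hes5 and Pcna, at -1.08 and -0.41; at an unadjusted p under 0.05, 2 lower and 1 higher), and with the replicate block 3 were lower and 1 higher. Astrocyte markers, with 8 of 9 detected, summed to 24600 to 33700 in controls and 18400 to 23000 after knockdown. On the brightest probes all 8 astrocyte differences were below 0, and 4 passed. Second probes of Aldh1l1 and Sox9 differed by 0.27 and 0.05 without passing. The other probes of Gfap, Slc1a2 and Aldoc were below 0. Inhibitory neuron markers summed to 48100 to 53500 in controls and 24800 to 30800 after knockdown, with 6 of 6 lower. Oligodendrocyte lineage markers, with 3 of 8 detected, summed to 8140 to 10900 in controls and 4700 to 7550 after knockdown, without overlap. None of the 3 passed by limma (1 lower at an unadjusted p under 0.05), but Olig1, at -0.63, did with pairs as a block (adjusted p = 0.0123). Excitatory neuron markers, with 4 of 6 detected, summed to 12800 to 13600 in controls and 12700 to 13700 after knockdown, and 3 passed in both directions (Camk2a at -1.03, Slc17a7 at -0.87 and Slc17a6 at 0.79). Of the microglia markers 1 of 7 was detected, and of the vascular and fibroblast markers 4 of 8. The pan-neuronal calls went both ways, with Elavl3 at 0.52, Stmn2 at 0.31 and Rbfox3 at -0.42, of which Stmn2 did not pass with the replicate block. These shifts ran beside every result given here, and their part in the members' differences was not tested. In cultures measured in bulk, fewer cells of a type and less RNA per cell cannot be told apart.

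Ss18 and Ss18l1, the progenitor-type and neuron-type forms of the same subunit, moved in opposite directions. SS18 is a small subunit known from its fusion in synovial sarcoma. Its brightest probe read log2 intensities of 9.18, 9.14 and 9.34 in control replicates 1 to 3, and 8.56, 8.54 and 8.57 in the knockdown replicates. All 3 knockdown arrays lay below every control array, by at least 0.57. Ss18 fell by 0.66 on the log2 scale (SE 0.083, n = 3 per group, limma adjusted p = 0.0022), a 1.58-fold difference. A dimmer Ss18 probe read 6.83, 6.82 and 7.23 in controls and 6.76, 6.02 and 6.46 after knockdown. It differed by -0.55 (SE 0.21) without passing (limma adjusted p = 0.0974 over all detected probes), and its knockdown value in replicate 1 lay just below the controls. The other 4 Ss18 probes were detected on no array.

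Ss18l1 encodes CREST, a calcium-responsive transactivator that binds the coactivator CBP and is needed for dendrite growth in mouse cortical neurons. Its brightest probe read 9.66, 9.62 and 9.76 in controls and 10.12, 10.15 and 10.16 after knockdown. The groups did not overlap, and the lowest knockdown array lay 0.36 above the highest control. Ss18l1 rose by 0.47 (SE 0.076, n = 3 per group, limma adjusted p = 0.0054), a 1.38-fold difference. Both dimmer probes of Ss18l1 were higher too, by 0.74 (limma adjusted p = 0.0218) and 0.68 (limma adjusted p = 0.00681). Their control arrays lay between 7.01 and 7.18 and their knockdown arrays between 7.61 and 8.21. The call did not hold with median scaling (0.37, limma adjusted p = 0.146), nor without replicate pair 1 (0.0741) or pair 2 (0.0748).

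The change in the log2 ratio of Ss18l1 to Ss18 was 1.07, 1.14 and 1.17 in the 3 pairs (mean 1.13, SD 0.049). The brightest probes of each gene were used. The level of that ratio has no meaning across probes of different brightness. Its change within a pair has a direction, but its size depends on the probes read. Both dimmer probes of Ss18l1 differed by more (0.74 and 0.68) than its brightest (0.47). The dimmer Ss18 probe differed by -0.55, against -0.66 for its brightest. The corresponding ratio of Dpf1 to Phf10 changed by -0.64, -0.17 and -0.22, which is towards the progenitor form in each pair on the brightest probes. Dpf1 itself was higher in each pair, but by less than Phf10. On the dimmer probe of each gene, pair 3 went the other way, with 0.66 for Dpf1 and 0.45 for Phf10. The ratio of Actl6b to Actl6a changed by 0.07, 0.68 and -0.26 and had no shared direction. Ss18l1 over Ss18 therefore went towards the neuron form in all 3 pairs.

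**Figure D2:**
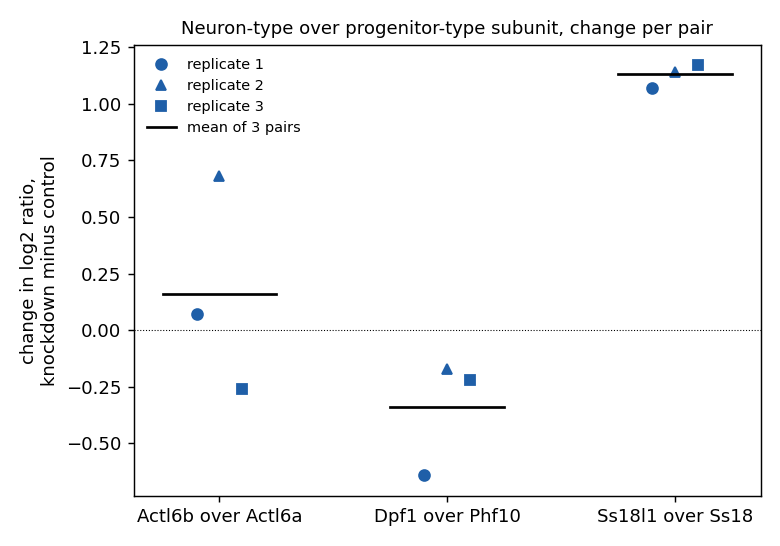
Change in the log2 ratio of a neuron-type to a progenitor-type subunit gene, knockdown minus control (y axis), for 3 pairs of related genes (x axis), with 1 point per pair of same-numbered arrays and a bar at their mean. The points of Ss18l1 over Ss18 lie between 1.07 and 1.17, those of Dpf1 over Phf10 below 0, and those of Actl6b over Actl6a on both sides of 0.

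Phf10 was higher after knockdown, which is the direction of the progenitor form. Its product BAF45a carries PHD fingers, is found in the PBAF form of the complex, and is known to keep mouse neural progenitors dividing. The brighter probe read 10.64, 10.91 and 10.65 in controls and 11.33, 11.69 and 11.31 after knockdown. The groups did not overlap, and the pairs differed by 0.69, 0.78 and 0.66. Phf10 rose by 0.71 (SE 0.14, n = 3 per group, limma adjusted p = 0.0097), a 1.64-fold difference. The dimmer probe read 8.86, 9.29 and 9 in controls and 9.74, 10.18 and 9.46 after knockdown, and was higher by 0.74 (limma adjusted p = 0.0375). Both probes therefore separated the groups. Without replicate pair 1 the adjusted p of the brighter probe was 0.0811.

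Smarca4 encodes BRG1, an ATPase that drives the complex in progenitors and neurons alike. It had 1 probe, which read 9.06, 8.87 and 8.91 in controls and 9.53, 9.43 and 9.47 after knockdown. Each knockdown array was above each control array, and the pairs differed by 0.47, 0.56 and 0.55. Smarca4 rose by 0.53 (SE 0.084, n = 3 per group, limma adjusted p = 0.0051), a 1.44-fold difference. The adjusted p was 0.0873 with median scaling and 0.0602 without replicate pair 2. The alternative ATPase gene Smarca2, which encodes BRM, differed by 0.08 (95% interval -0.1 to 0.25) on its brightest probe and did not pass. Its other detected probes differed by 0.17 and -0.20 without passing.

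The promoters of the 3 members that rose are shown as RefSeq gives them (GRCm38.p6), from 250 bases before to 50 after the gene start, since these genes moved in 1 direction. Capitals mark the GC box (GGGCGG on either strand, overlapping matches included), the usual site of SP factors. Phf10 lies at chr17:14961211-14961510, minus strand, Ss18l1 at chr2:180042233-180042532, plus strand and Smarca4 at chr9:21615919-21616218, plus strand. The motif occurred in all 9 member promoters examined, and in 35.7% of 32851 promoters of the same length. These 9 include the members that did not pass and Dpf3, but not Ss18, the member that fell, which was not examined. The Phf10 promoter has 87.0% G and C and 62 CpG dinucleotides, a number that 0.0487% of all promoters reach. The Ss18l1 promoter has 39 CpG and that of Smarca4 33, against a median of 7 over all promoters. Among the members that did not pass, the number ran from 21 for Actl6a to 40 for Smarcd3, and it was 17 for Dpf3. All 9 thus lie above the median. The 35.7% with a GC box is over all promoters, and promoters as rich in CpG as the members were not compared separately. The motif TGACGT, which is part of the cyclic AMP response element and was searched on both strands, occurred in the Phf10 promoter among the 9 and in 7.51% of all promoters. TATAAA occurred in none of the 9 and in 13.6% of all. These matches describe the letters of the windows alone.
Phf10 promoter: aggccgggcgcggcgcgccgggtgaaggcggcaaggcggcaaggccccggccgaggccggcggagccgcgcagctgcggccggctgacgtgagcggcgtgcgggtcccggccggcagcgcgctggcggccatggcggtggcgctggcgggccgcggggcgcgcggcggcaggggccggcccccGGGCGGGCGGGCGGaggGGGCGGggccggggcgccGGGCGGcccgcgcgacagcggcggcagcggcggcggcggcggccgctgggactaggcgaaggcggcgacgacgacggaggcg
Ss18l1 promoter: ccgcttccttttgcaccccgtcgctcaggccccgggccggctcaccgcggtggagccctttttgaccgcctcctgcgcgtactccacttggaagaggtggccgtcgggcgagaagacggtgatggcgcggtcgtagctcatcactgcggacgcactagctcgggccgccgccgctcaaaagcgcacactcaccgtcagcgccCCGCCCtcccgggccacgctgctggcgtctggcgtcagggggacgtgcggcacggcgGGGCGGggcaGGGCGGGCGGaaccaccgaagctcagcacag
Smarca4 promoter: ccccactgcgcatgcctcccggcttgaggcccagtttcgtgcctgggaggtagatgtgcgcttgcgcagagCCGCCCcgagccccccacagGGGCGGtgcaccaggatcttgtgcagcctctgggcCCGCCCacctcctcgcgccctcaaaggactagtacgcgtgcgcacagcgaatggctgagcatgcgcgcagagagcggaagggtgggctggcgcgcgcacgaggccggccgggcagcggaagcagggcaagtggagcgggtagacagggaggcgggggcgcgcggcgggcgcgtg

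Actl6a and Actl6b, the pair most often used to mark the exchange, did not pass on any of their 6 detected probes. Actl6a encodes an actin-related protein that sits with the ATPase in progenitors, and its brighter probe read 8.20, 7.92 and 7.80 in controls and 8.26, 7.56 and 8.09 after knockdown. The groups overlapped, and the pairs ran in both directions. The difference was -0.01 (SE 0.20, 95% interval -0.48 to 0.47, limma adjusted p = 0.985). The interval is wide, and it holds changes of up to about the size seen for Ss18l1. The other Actl6a probe is annotated to a different transcript record and was dim, with 6.35, 6.60 and 6.45 in controls and 6.31, 6.14 and 6.30 after knockdown. Its groups did not overlap, but the gap was 0.04 and the difference of -0.22 did not pass (limma adjusted p = 0.163).

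Actl6b encodes the neuronal counterpart BAF53b, which in mice is needed for dendrite growth and long-term memory. The brightest probe read 11.03, 11.07 and 11.20 in controls and 11.15, 11.38 and 11.23 after knockdown, and the groups overlapped slightly. Actl6b differed by 0.16 (SE 0.095, 95% interval -0.07 to 0.38, limma adjusted p = 0.258). For the brightest probe the interval excludes a rise as large as that of Ss18l1 at its estimate, and does not exclude smaller ones. For the other probes no interval is given. The other 3 probes differed by 0.23, 0.35 and 0.05, so all 4 differences were above 0 and none passed (limma adjusted p of 0.0934 to 0.842 over all detected probes). These probes report the same transcript on the same arrays and are not separate replicates.

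Dpf1 and Dpf3 encode the neuronal forms of the BAF45 subunit, BAF45b and BAF45c, which bind modified histone tails. The brighter Dpf1 probe read 7.18, 7.04 and 7.39 in controls and 7.23, 7.65 and 7.83 after knockdown. It was higher in each pair, but the groups overlapped and the difference of 0.37 (SE 0.17, 95% interval -0.05 to 0.78) did not pass (limma adjusted p = 0.152). Without knockdown replicate 1, whose value lay among the controls, it was 0.53 with an adjusted p of 0.0414. The dimmer Dpf1 probe differed by 0.13 and went down in pair 2. Neither Dpf3 probe was detected on any array, with detection p of 0.113 to 0.937, so no difference is given for that gene. The deposited intensities of both probes ran from 68.8 to 112.

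Smarcc1 and Smarcd3 encode the structural subunits BAF155 and BAF60c. Smarcc1, which is high in mouse cortical progenitors, read 8.15, 8.41 and 8.64 in controls and 7.98, 7.89 and 8.39 after knockdown. It was lower in each of the 3 pairs, though the groups overlapped because the pairs differed in level. The difference was -0.32 (SE 0.18, 95% interval -0.74 to 0.11, limma adjusted p = 0.216, or 0.071 with the replicate block). Its second probe was detected on 1 of 6 arrays. Smarcd3 is the BAF60 form known from heart and neurons, and read 10.67, 10.54 and 10.83 in controls and 10.65, 10.68 and 10.72 after knockdown. The difference was 0.00 (SE 0.095, 95% interval -0.22 to 0.23), with -0.10 under median scaling, and the groups overlapped.

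**Figure D3:**
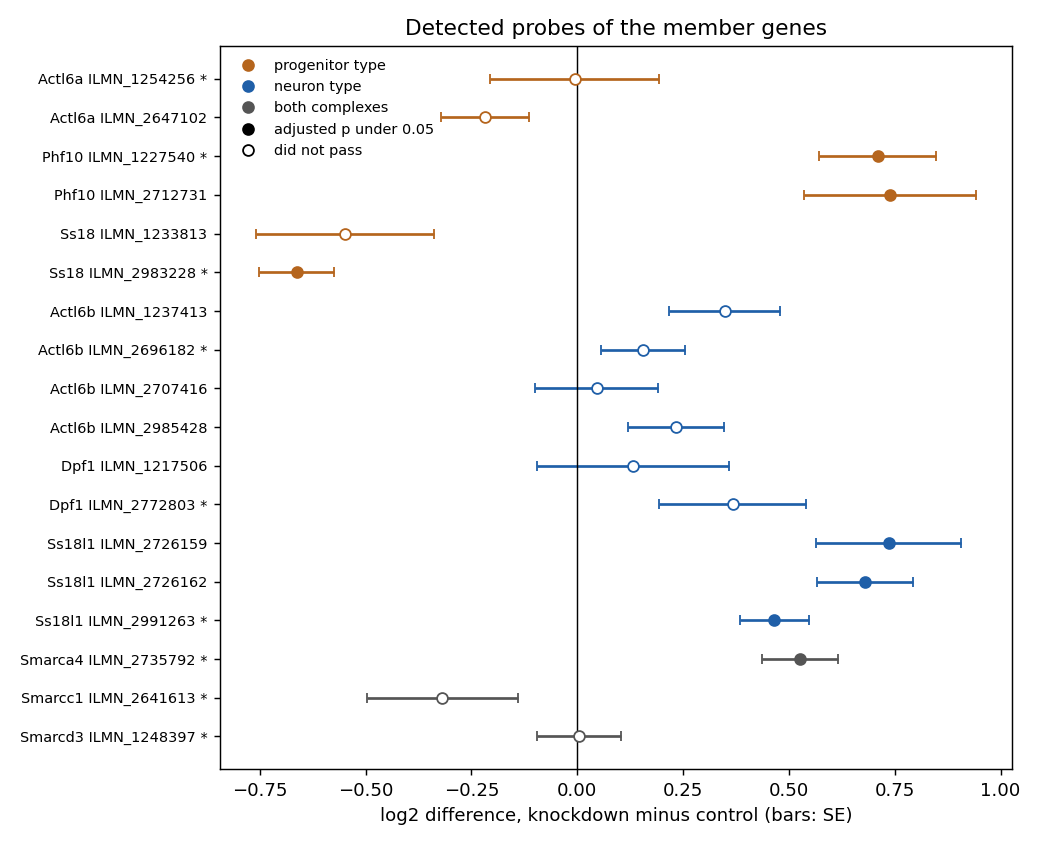
Log2 difference, knockdown minus control (x axis, bars are standard errors), for each of the 18 detected member probes (y axis), coloured by class, with filled circles at a limma adjusted p under 0.05 over all detected probes and a star on the probe used for the gene. Both Phf10 probes and all 3 Ss18l1 probes are filled and above 0, and the 4 Actl6b probes are open and between 0.05 and 0.35.

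Counted by probe, 7 of the 18 detected member probes passed, 6 higher and 1 lower, or 38.9% against 27.4% of all 18627 detected probes. All detected probes of Phf10 and of Ss18l1 are among the 7, and probes of 1 gene are not separate replicates. Different probes of 1 gene agreed in sign for each of the 6 members with more than 1 detected probe. For Actl6a this means little, as its brighter probe differed by -0.006 (SE 0.20). Without knockdown replicate 2 that difference was 0.199. A fit with the replicate block passed the same 4 members, with adjusted p of 0.0058 for Phf10, 0.0075 for Ss18, 0.0142 for Ss18l1 and 0.0102 for Smarca4. In that fit 33.4% of all genes passed.

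Read from the brightest probe of each gene, the 3 other subunits of the complex that passed were higher. Their share was near that of higher calls among all genes, but below that of calls in either direction. Of 20 listed genes of the BAF, PBAF and non-canonical BAF forms, 18 were tested, 3 rose, 0 fell and 15 did not pass by limma. Before adjustment, 4 had p under 0.05 on the higher side and 0 on the lower. The called share is 16.7% against 31.9% of all genes, with a median of 0.12 against 0.01. By direction, 16.7% were higher and 0% lower, against 16.6% and 15.3% of all genes. Pbrm1, which encodes the bromodomain subunit polybromo of PBAF, rose by 0.47 (SE 0.10, limma adjusted p = 0.0136), and its arrays read 11.08 ± 0.094 in controls and 11.55 ± 0.13 after knockdown (mean ± SD, n = 3). Its other probes differed by 0.53 and 0.42 without passing (limma adjusted p of 0.0812 and 0.402). The Pbrm1 call was lost with the mean of detected probes (adjusted p = 0.0632), without control replicate 1 (0.0544) and without pair 1 (0.0888) or pair 2 (0.114). Brd9, a bromodomain subunit of the non-canonical form, rose by 0.42 (SE 0.083, limma adjusted p = 0.0108), and its other probe by 0.39, but the call was lost without pair 1 (adjusted p = 0.121) or pair 2 (0.0975). Smarce1, which encodes the DNA-binding subunit BAF57 shared by BAF and PBAF, rose by 0.31 (SE 0.080, limma adjusted p = 0.0279), with 0.29 and no call for its other probe. The Smarce1 call was lost in each fit that left out an array or a pair (adjusted p of 0.0518 to 0.17), and with median scaling none of the 3 passed. With the replicate block 5 genes rose. The further ones were Arid1b at 0.35 (adjusted p = 0.0274) and Arid2 at 0.38 (adjusted p = 0.0409), which encode large DNA-binding subunits of BAF and PBAF. The other Arid1b probe differed by 0.11 without passing (limma adjusted p = 0.701 over all detected probes, without the block).

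Among the rest of that list, Smarcc2, which encodes BAF170, differed by 0.16 and Smarcb1 by 0.17, neither passing. Dpf2, the BAF45 form found in most cell types, and Bicra were not detected. The probes of Bcl7c disagreed, an observation made after its values were seen. The brightest differed by 0.03, while its other detected probes differed by 2.09 and 1.09 (limma adjusted p of 0.000331 and 0.000894), and which transcripts they read was not tested.

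**Figure D4:**
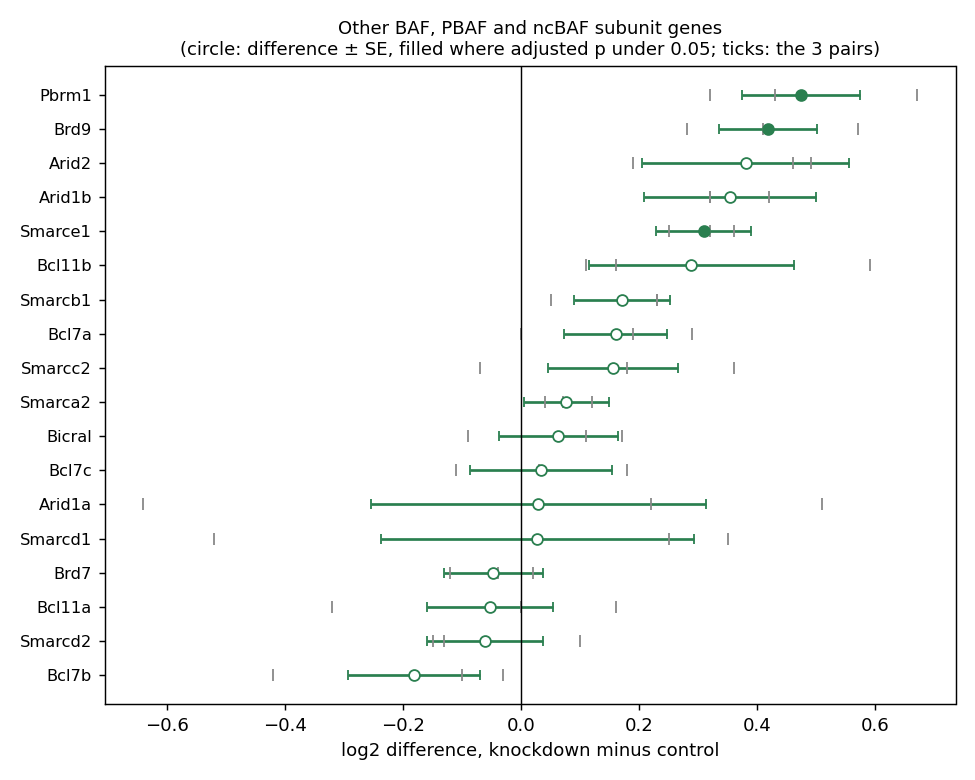
Log2 difference, knockdown minus control (x axis), of the 18 tested genes for other BAF, PBAF and ncBAF (non-canonical BAF) subunits (y axis), as circles with standard errors, filled at a limma adjusted p under 0.05, and ticks for the 3 pairs. Pbrm1, Brd9 and Smarce1 are filled, and the genes range from -0.18 for Bcl7b to 0.47 for Pbrm1.

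Other families of chromatin remodellers gave calls mostly below 0. Of 29 listed genes of the CHD, ISWI, INO80 and NuRD groups, 20 were tested, 1 rose, 4 fell and 15 did not pass, a share of 25% beside the 31.9% of all genes. Mta3, a NuRD subunit gene, fell by 1.02 (SE 0.086, limma adjusted p = 0.000615), but its other probe differed by -0.40 without passing. Chd3, a NuRD ATPase gene, fell by 0.57 and the helicase gene Ruvbl1 by 0.45, and Chd2 rose by 0.59. Their limma adjusted p lay between 0.00508 and 0.03. In the same list Chd4 and Chd5 differed by -0.28 and 0.31 on their brightest probes without passing. The other gene that fell, Smarca1 of the ISWI group (-0.29), lost its call under the replicate block (adjusted p = 0.0509). The median of this list was -0.09, whereas that of the 9 members was 0.16 and that of the other BAF subunits 0.12, and the difference between lists was not tested.

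Of the regulators that stand upstream of the exchange in mouse neurons, 10 of 11 listed genes were tested, 0 rose, 2 fell and 8 did not pass by limma (20.0% called, beside 31.9% of all genes; at an unadjusted p under 0.05, 1 higher and 3 lower). REST is the repressor that holds back miR-9* and miR-124 outside neurons, and its gene Rest was not detected. Its corepressor gene Rcor1 fell by 0.48 (SE 0.093, limma adjusted p = 0.0101), with -0.92 for the other probe, and Ctdspl, which encodes a small phosphatase of the REST complex, fell by 0.45 (limma adjusted p = 0.0251). Ptbp1 and Ptbp2, splicing repressors that follow each other in neuronal differentiation, differed by 0.25 and -0.27 and did not pass. With the replicate block the corepressor gene Rcor3 passed as higher, by 0.53 (adjusted p = 0.0183).

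Genes reported in mouse neurons to depend on neuron-type BAF or on CREST with BRG1 were also read. The list also holds Crebbp, as the gene of a CREST partner. Of its 5 genes 3 fell (60%, beside 15.3% of all genes, in a list picked with earlier results of these arrays known). Fos, a CREST target and immediate early gene, fell by 2.06 (SE 0.26, limma adjusted p = 0.0023). The neurotrophin gene Bdnf fell by 1.18 (SE 0.20, limma adjusted p = 0.0057), although its 4 other probes ranged from -0.18 to -1.26. Ngef, which encodes ephexin, fell by 1.00 (SE 0.087, limma adjusted p = 0.000661), and its second probe by 1.08. The NMDA receptor gene Grin2b and Crebbp, which encodes CBP, differed by -0.02 and 0.08 without passing. On the same arrays Ss18l1 and Smarca4 were higher. Whether these falls bear on the subunits was not tested.

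The genes whose levels ran most like that of Actl6a over the 6 arrays were Ppp4r2, Bzw1 and Ttc30b (Pearson r of 0.974, 0.972 and 0.968). Those most like Actl6b were Rnf40, 1810063B07Rik and Ubap2l (r of 0.993, 0.988 and 0.985). These values come from a search over all genes on 6 arrays that share 2 groups, and are a description.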

How the data were processed

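Total RNA (500 ng per sample, from wells of 500000 neurons) was labelled with biotin and read on Illumina bead arrays, per the labels' protocols. The deposited table gives an intensity and a detection p-value per probe and array, with no normalisation between arrays, per the file headers. A further table holds the authors' processed intensity values, which differed from quantile-normalised deposited values by at most 0.00462 on the log2 scale. The scanner software is not given in the sources used here.

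Intensities were background-corrected with normexp from the detection p-values (limma 3.58.1 neqc in R 4.3.3, offset 16), quantile normalised and taken to log2. Probes detected at p under 0.05 on at least 3 arrays were kept, 18627 of 45281. Of all probes 35784 had 1 symbol and 9497 none. Symbols came from the platform annotation and 937 were updated through gene ID or accession to RefSeq (GRCm38.p6). Each gene was read from its brightest detected probe. Knockdown minus control was fitted with limma's linear model and moderated variance on all 6 arrays, with Benjamini-Hochberg adjustment over all 11280 genes (over all detected probes for single probes) and a threshold of 0.05. Numbers were taken as pairs, since same-numbered arrays deviated together from their group means (r of 0.148, 0.253 and 0.25 across genes) and the series describes 3 preparations. These r are small, and none is given for differently numbered arrays. They do not settle which arrays share a preparation. The fit without the replicate block is given first.

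The members and lists were chosen with earlier results of these data known. All members are named with every probe. Of the other BAF subunits up to 8 that passed are named, with Smarca2, Smarcc2 and Dpf2, and of each further list up to 4 that passed, by absolute difference. Genes named beyond this, Bcl7c, Smarcb1 and Arid1b among them, were picked after their values were seen.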

Additional observations from a re-analysis of the deposited data

How the results depend on the processing

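The 11 alternatives without left-out arrays changed background correction, normalisation, starting values, filters, pairing, variance model, array weights and choice of probe. Of these, only median scaling lowered the 4 member calls, to 2. It also gave 2288 calls among all genes in place of 3598, and 0 in place of 3 among the other BAF subunits by limma (0 at an unadjusted p under 0.05). It moved the median difference of all genes from 0.006 to -0.078 and that of the members from 0.155 to 0.023. With the replicate block 5 other BAF subunits passed, Rcor3 was called higher (0.53, adjusted p = 0.0183) and the call of Smarca1 was lost (adjusted p = 0.0509), while the 4 member calls were kept. Fits that left out an array or a pair gave 1191 to 3160 calls among all genes, with 2284 without control replicate 1, 2 to 5 among the members and 0 to 3 among the other subunits (2 and 3 at an unadjusted p under 0.05 without pairs 1 and 2, where none passed). Ss18 passed in all 9 such fits, Phf10 and Smarca4 in 8 and Ss18l1 in 7. Smarcd3, near 0 throughout, turned to -0.101 with median scaling and -0.002 with cyclic loess, and ran from -0.065 to 0.077 with arrays left out. Actl6a ran from -0.153 to 0.199 with arrays left out and passed in none of these fits. The sizes of dim probes depend on the background correction: without it the dimmer Ss18 probe differed by -0.31 and those of Ss18l1 by 0.52 and 0.48. Causes of these changes were not tested.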
